A study of Mus musculus with 9 samples.

Results

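Chil1, Apod, Wfdc18, Clca3a2, Ceacam10, Tc2n, Lcn2 and Mfge8 are 8 genes chosen by their high log2 signal in NDL mammary tumours relative to Met1 and SSM2 tumours, and most of them encode proteins that epithelial cells secrete. They are 8 of the 19938 genes measured, each represented by a single array feature whose annotation gives exactly 1 gene symbol. The study profiled snap-frozen tumours grown from 3 transplantable mouse mammary cell lines, NDL, Met1 and SSM2, with 3 samples per line and 1 Affymetrix Mouse Gene 1.0 ST array per sample. By background knowledge of the lines, an activated neu (ErbB2) transgene drives NDL and a polyoma middle T transgene drives Met1, both under the mouse mammary tumour virus promoter. Every tumour grew in uncleared mammary fat pads, on both sides, of female hosts, FVB/NJ mice (strain label FVB/N) 6 to 8 weeks old, after injection of 100000 to 2000000 cultured cells, and was taken at a maximum width of 5 to 10 mm. Each line is a single cell line, and the labels do not say that its 3 samples came from separate tumours or animals, so n counts samples and p-values measure only the spread between them. In bulk tissue, fewer cells of a type and less RNA per cell cannot be told apart.

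As background, glands release proteins that defend surfaces, carry lipids and clear cell debris. The mammary epithelium adds many of these to milk, and their genes respond to differentiation, to cytokines and to inflammation. Chil1 encodes a chitinase-like lectin without enzyme activity (BRP-39, the mouse counterpart of human YKL-40). Apod and Lcn2 belong to the lipocalins, small carriers of lipids and of iron-binding siderophores. Wfdc18 has a WAP domain, the cysteine-rich fold of whey acidic protein and of several protease inhibitors. Clca3a2 belongs to the Clca family of secreted or shed proteins once thought to be chloride channels, and Ceacam10 to the carcinoembryonic antigen family of immunoglobulin-like proteins. Mfge8, lactadherin, coats milk fat globules and bridges phosphatidylserine on dying cells to integrins of phagocytes. Tc2n holds a pair of C2 domains and is not known as a secreted protein, so the name "secreted products" does not cover it.

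Signals are log2 values that the authors made by RMA, a method that corrects background, equalises the arrays and summarises probes, so that 1 unit is a doubling. The 3 NDL arrays had upper quartiles of 7.85, 7.84 and 8.09, against 8.02 to 8.05 in Met1 and 7.98 to 8.08 in SSM2. Arrays of 1 line correlated at 0.947 to 0.986 across genes in NDL, at 0.987 to 0.995 in Met1 and at 0.962 to 0.983 in SSM2, and arrays of different lines at 0.891 to 0.949. The 25th percentile of mean signal over genes was 4.91, and a difference from a line whose mean lies under it has an uncertain size. Levels are compared between lines for the same gene only, since features differ in brightness. The members were chosen because NDL was high, so their differences between NDL and the other lines are given as a description with no test, and only Met1 against SSM2 was tested.

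All 8 genes had every NDL array above every Met1 and SSM2 array, a property that 2336 of 19938 genes (11.7%) shared and for which these were picked. Their median log2 difference was 5.53 between NDL and Met1 and 5.31 between NDL and SSM2, beside 0.06 and 0.09 over all genes. Over all genes, 8.88% passed as higher and 10.2% as lower in NDL against Met1, and 9.35% and 7.52% against SSM2. The 8 genes did not form a uniform group. For 6 of them the NDL mean exceeded the higher of the other lines by 4.91 to 5.64 log2 units, which placed them at ranks 1 (Wfdc18), 2 (Clca3a2), 3 (Ceacam10), 5 (Chil1), 7 (Tc2n) and 8 (Apod) among all genes. Lcn2 and Mfge8 were bright in all 3 lines, with an excess of 0.88 and 0.72 and ranks 553 and 752.

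**Figure D1:**
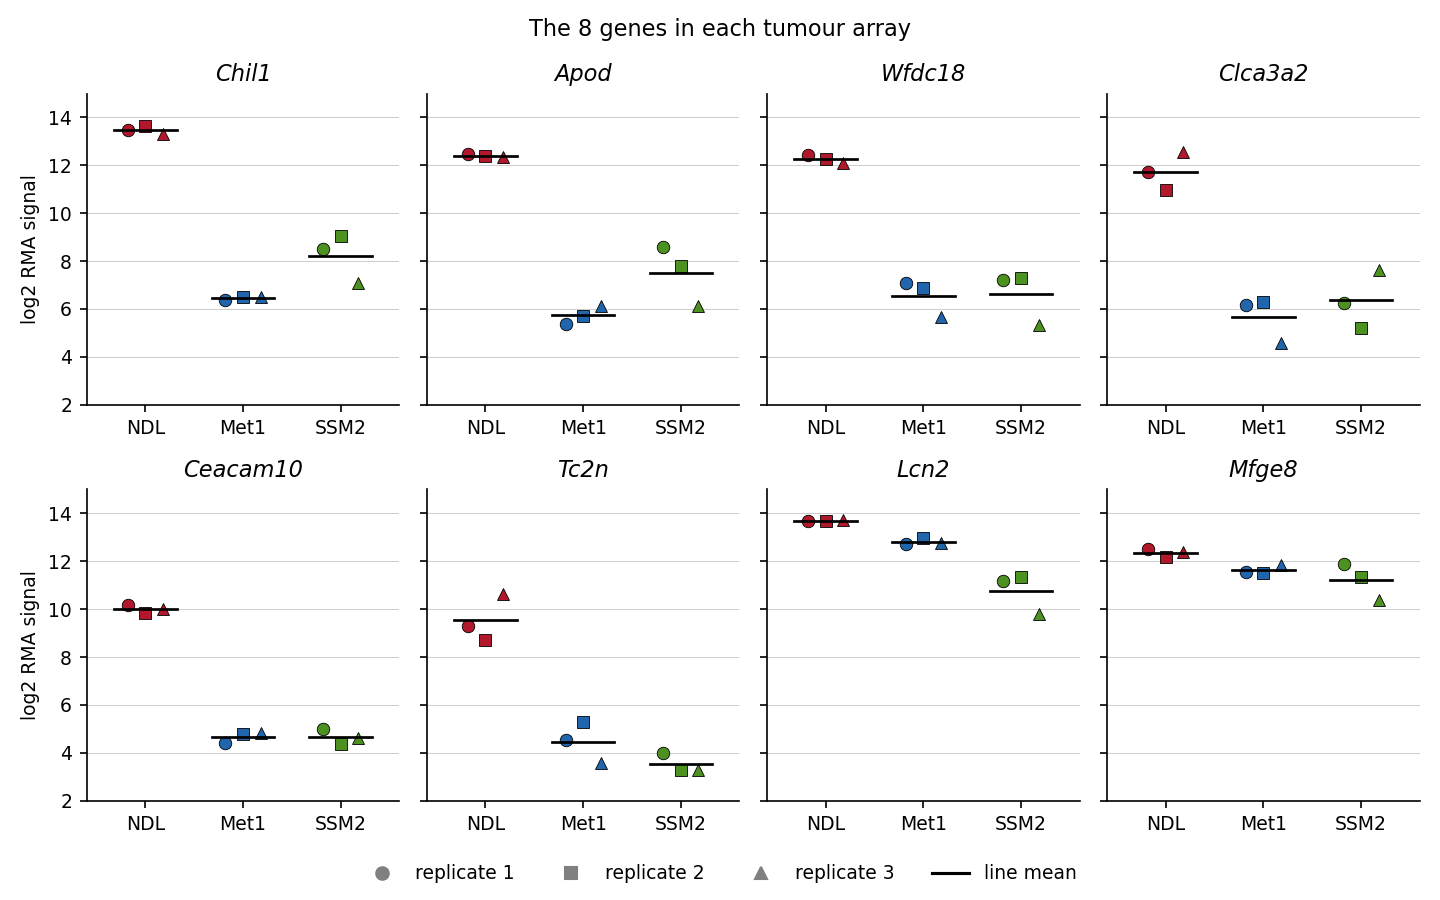
Log2 RMA signal (vertical axis) of the 8 genes in each array of NDL, Met1 and SSM2 tumours, with a symbol for each replicate number and a black bar at the line mean (n = 3 each). The NDL points lie above all others in every panel, by at least 3.33 log2 units for 6 genes, but by 0.69 for Lcn2 and 0.30 for Mfge8.

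Since the 8 genes were high together in NDL, the 250 bases before each transcription start were searched on both strands for letters of known inducers. RefSeq (GRCm38.p6) gave 10 such windows for all 8 genes, out of 32851 in all. The STAT motif TTCNNNGAA was in 7.02% of all windows and in 0 of the 10. The C/EBP motif TTGCGCAA was in 0.16% of all windows and in 0 of the 10. The TATA motif TATAAA, added after the data were seen, was in 12.37% of all windows and in that of Wfdc18. The GC content of the windows ran between 36.4% (Apod) and 68.0% (Tc2n), beside a median of 52.4% over all. A match describes letters only. The windows are printed for Wfdc18, which holds the TATA letters, and for Chil1, the gene with the largest difference from Met1, which holds none of these motifs. They are written on the strand of the gene, 5′ to 3′, ending at the base before the start, with the TATAAA of Wfdc18 in capitals. Wfdc18 is at chr11:83708754-83709003 (plus strand), with TATAAA 31 bases before the start. Chil1 is at chr1:134181906-134182155 (plus strand).
Wfdc18: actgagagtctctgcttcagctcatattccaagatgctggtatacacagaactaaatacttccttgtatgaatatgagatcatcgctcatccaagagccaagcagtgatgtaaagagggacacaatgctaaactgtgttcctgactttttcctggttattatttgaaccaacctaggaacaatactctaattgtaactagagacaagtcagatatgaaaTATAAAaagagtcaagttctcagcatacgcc
Chil1: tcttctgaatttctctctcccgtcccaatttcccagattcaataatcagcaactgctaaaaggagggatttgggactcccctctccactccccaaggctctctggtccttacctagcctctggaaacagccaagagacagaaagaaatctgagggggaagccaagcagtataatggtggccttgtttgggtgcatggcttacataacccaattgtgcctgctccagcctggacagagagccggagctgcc

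Chil1 (feature 10349968, chromosome 1) read 13.48, 13.63 and 13.31 in NDL, against 6.36, 6.52 and 6.52 in Met1 and 8.52, 9.05 and 7.07 in SSM2. NDL was the highest by far and tight, and the SSM2 arrays all lay above the Met1 arrays, with replicate 3 nearest to them. The NDL mean exceeded Met1 by 7.01 ± 0.42 (model SE; 129-fold) and SSM2 by 5.26 ± 0.42 (38.5-fold). Between the lines not used to pick it, Chil1 was lower in Met1 than in SSM2 by a log2 difference of -1.74 ± 0.42 (limma, adjusted p = 0.0302, 95% interval -2.71 to -0.78). That call did not pass in every fit with an array left out. Without NDL replicate 1 the difference stayed at -1.74, with a limma adjusted p of 0.0576. The adjusted p was 0.104, 0.0863 and 0.0844 without Met1 replicates 1, 2 and 3 (differences of -1.69, -1.77 and -1.77). It was 0.084 and 0.0740 without SSM2 replicates 1 and 2 (-1.59 and -1.33). It was 0.00028, with a difference of -2.31, without SSM2 replicate 3.

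Apod (feature 10439009, chromosome 16), a carrier of arachidonic acid and progesterone that is abundant in human breast cyst fluid, read 12.46, 12.40 and 12.36 in NDL. Met1 arrays read 5.37, 5.71 and 6.10, and SSM2 arrays 8.60, 7.79 and 6.11. The NDL arrays were within 0.1 of each other, while SSM2 spread widely, its replicate 3 lying just above the highest Met1 array. The excess of NDL was 6.68 ± 0.53 over Met1 (103-fold) and 4.91 ± 0.53 over SSM2 (30.02-fold). Met1 minus SSM2 was -1.77 ± 0.53 and missed the threshold (limma, adjusted p = 0.0701), but passed at 0.00132, with a difference of -2.47, without SSM2 replicate 3.

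Lcn2 (feature 10481627, chromosome 2), the siderophore-binding lipocalin 2 of neutrophil granules and inflamed epithelia, read 13.69, 13.66 and 13.73 in NDL. It read 12.72, 12.98 and 12.75 in Met1 and 11.19, 11.34 and 9.80 in SSM2. The 3 lines formed separate steps with no overlap. NDL exceeded Met1 by 0.88 ± 0.35 (1.84-fold) and SSM2 by 2.92 ± 0.35 (7.55-fold). Lcn2 was higher in Met1 than in SSM2 by 2.04 ± 0.35 (4.11-fold, limma, adjusted p = 0.00699), and with each array left out in turn the adjusted p stayed between 0.000288 and 0.0331.

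Wfdc18 (feature 10379731, chromosome 11), also known as Expi, a small secreted WAP protein of the mouse mammary gland, read 12.44, 12.25 and 12.09 in NDL. Met1 arrays read 7.10, 6.87 and 5.65, and SSM2 arrays 7.21, 7.30 and 5.34. The Met1 and SSM2 arrays overlapped throughout, each line with a low replicate 3. NDL exceeded Met1 by 5.72 ± 0.55 (52.7-fold) and SSM2 by 5.64 ± 0.55 (49.9-fold). Met1 minus SSM2 was -0.08 ± 0.55 (limma, adjusted p = 0.966), with an interval of -1.33 to 1.18 that leaves room for differences of more than 1 unit either way.

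Clca3a2 (feature 10502565, chromosome 3), known in the mammary gland as a gene switched on during involution, read 11.71, 10.98 and 12.54 in NDL. It read 6.17, 6.29 and 4.57 in Met1 and 6.25, 5.22 and 7.64 in SSM2. Its model SE was the largest of the 8 genes, and its Met1 and SSM2 arrays overlapped. NDL exceeded Met1 by 6.07 ± 0.70 (67.1-fold) and SSM2 by 5.37 ± 0.70 (41.4-fold). Met1 minus SSM2 was -0.70 ± 0.70 (limma, adjusted p = 0.665). Whether its probes also read Clca3a1, a close paralog, is not known here.

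Ceacam10 (feature 10550994, chromosome 7), a secreted member of its family in the mouse, read 10.19, 9.83 and 10.00 in NDL, against 4.41, 4.80 and 4.81 in Met1 and 4.99, 4.38 and 4.61 in SSM2. Both other lines averaged under the 25th percentile, so Ceacam10 was near background there. The excess was 5.34 ± 0.19 over Met1 (40.4-fold) and 5.35 ± 0.19 over SSM2 (40.7-fold), sizes that depend on that background. Met1 minus SSM2 was 0.01 ± 0.19 (limma, adjusted p = 0.984), within -0.41 to 0.44.

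Tc2n (feature 10402195, chromosome 12), the tandem C2 domain protein, read 9.28, 8.71 and 10.64 in NDL. Met1 arrays read 4.55, 5.28 and 3.56 and SSM2 arrays 4.00, 3.28 and 3.29, both near background. NDL was high but uneven, with replicate 3 above the others. The excess was 5.08 ± 0.56 over Met1 (33.8-fold) and 6.02 ± 0.56 over SSM2 (64.9-fold), both of uncertain size. Met1 minus SSM2 was 0.94 ± 0.56 (limma, adjusted p = 0.383).

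Mfge8 (feature 10564713, chromosome 7) read 12.50, 12.20 and 12.41 in NDL, against 11.57, 11.52 and 11.85 in Met1 and 11.90, 11.34 and 10.37 in SSM2. Its levels were high throughout, and Met1 and SSM2 overlapped. NDL exceeded Met1 by 0.72 ± 0.33 (1.65-fold) and SSM2 by 1.16 ± 0.33 (2.24-fold), the smallest excess of the 8 genes over the higher of the other lines. Met1 minus SSM2 was 0.44 ± 0.33 (limma, adjusted p = 0.527).

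**Figure D2:**
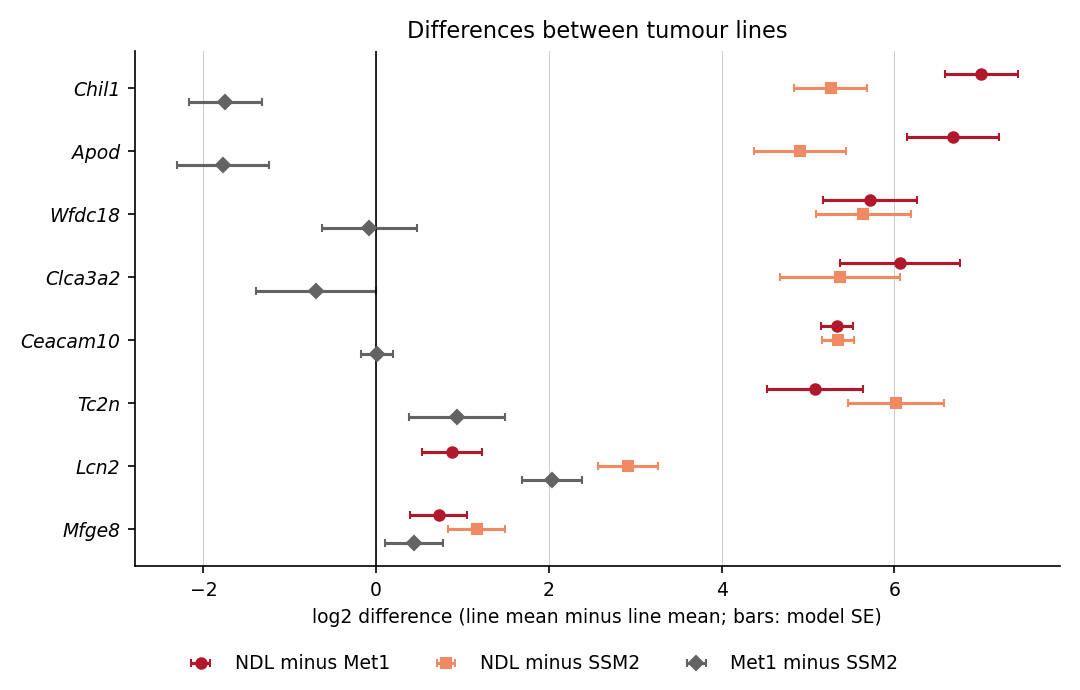
Log2 differences (horizontal axis) of the 8 genes for NDL minus Met1 (circles), NDL minus SSM2 (squares) and Met1 minus SSM2 (diamonds), with bars for the model SE (n = 3 each). The NDL differences run between 0.72 and 7.01, while Met1 minus SSM2 runs between -1.77 (Apod) and 2.04 (Lcn2).

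Between Met1 and SSM2, 1 of the 8 genes passed as higher (Lcn2; 7.1% of all genes did so) and 1 as lower (Chil1; 4.71% of all genes). The median over the 8 genes was -0.03, beside 0.04 over all genes, with 4 of 8 positive. The other 6 genes did not pass (limma, adjusted p of 0.0701 to 0.984). Lcn2 was the only 1 of the 8 to pass in every fit with an array left out. The count of lower genes was 0 without NDL replicate 1, Met1 replicate 1, 2 or 3, or SSM2 replicate 1 or 2, and 2 (Chil1 and Apod) without SSM2 replicate 3.

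Within lines, the 8 genes did not vary together. In SSM2, replicate 3 was the lowest array for Chil1, Apod, Wfdc18, Lcn2 and Mfge8, by 0.84 to 1.39 under the line mean, yet the highest for Clca3a2, by 1.27. In that array the fibroblast, macrophage and neutrophil marker means were also the lowest of SSM2 (9.07, 8.26 and 4.83), while the epithelial marker mean was 10.58, the highest of SSM2. In Met1, replicate 3 was the lowest array for Wfdc18, Clca3a2 and Tc2n, by 0.89 to 1.11, and there the epithelial marker mean was 6.07, against 7.57 and 7.77 in the other Met1 arrays. In NDL, Clca3a2 and Tc2n were lowest in replicate 2 and highest in replicate 3, and the other 6 genes stayed within 0.19 of their line mean. The part of these marker levels in the spread of the 8 genes was not tested.

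**Figure D3:**
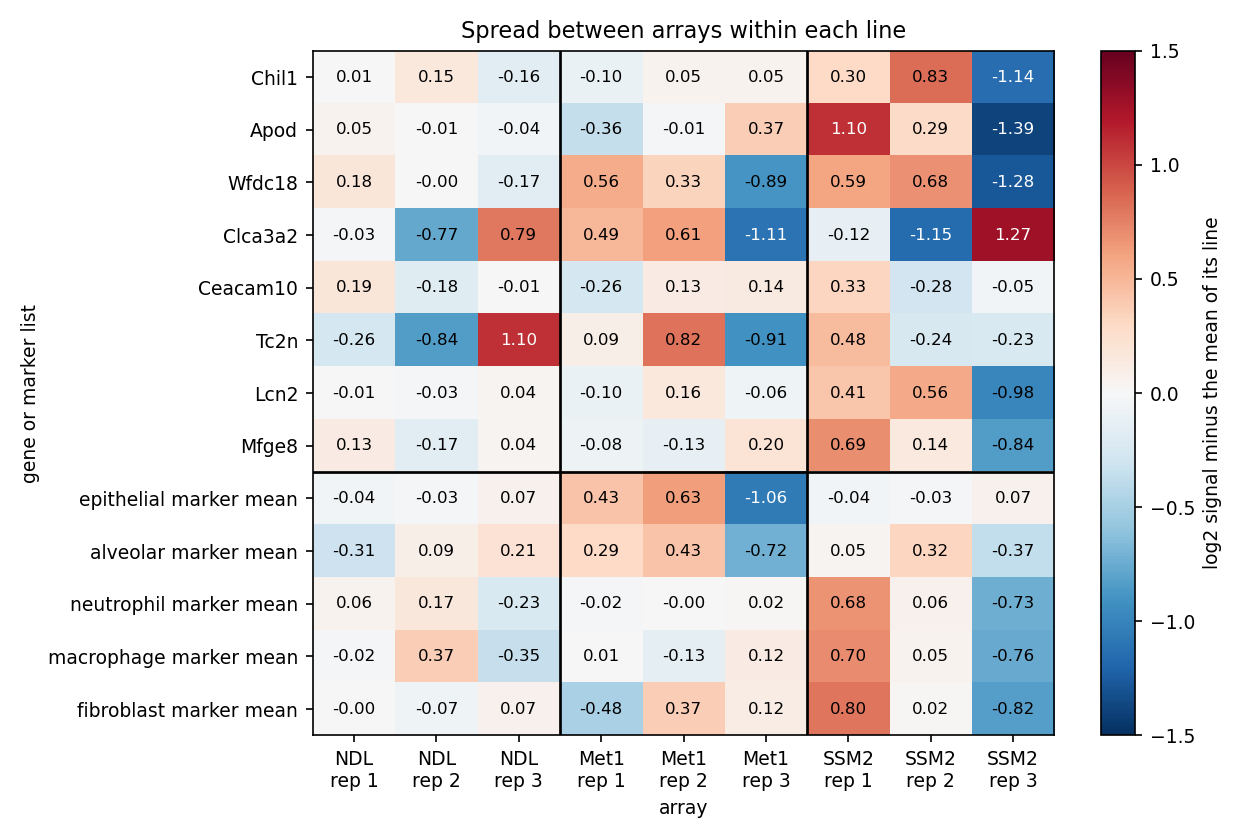
Log2 signal minus the mean of its line (colour and printed value) for the 8 genes and 5 marker-list means (rows) in the 9 arrays (columns). The column of SSM2 replicate 3 runs between -1.39 (Apod) and 1.27 (Clca3a2), and Ceacam10 stays within 0.33 of its line mean in every array.

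Marker levels place these values among cell types. The 10 epithelial markers (keratins, Epcam, Cdh1 and others) averaged 10.39 ± 0.06 in NDL, 7.14 ± 0.93 in Met1 and 10.52 ± 0.06 in SSM2 (SD, n = 3), and none of them had a line mean under the 25th percentile in any line. The alveolar list (6 of 7 markers measured: 4 caseins, Wap and the transcription factor Elf5) averaged 8.94 ± 0.27 in NDL, against 5.12 ± 0.63 in Met1 and 4.79 ± 0.35 in SSM2. Of these 6, 3 had a line mean under the 25th percentile in Met1 and 3 in SSM2, so the size of the gap is uncertain. Elf5, which drives alveolar differentiation, read 9.98, 10.15 and 10.50 in NDL, 6.48, 6.74 and 5.26 in Met1 and 5.65, 5.82 and 5.25 in SSM2. Erbb2 averaged 11.30 in NDL, 7.47 in Met1 and 8.80 in SSM2, so it was highest in the line labelled NDL. Whether its feature reads the neu transgene as well as the mouse gene is not known here. The part of the alveolar level in the high signal of the 8 genes was not tested.

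Neutrophils also hold Lcn2. The 12 neutrophil markers averaged 5.42 ± 0.21 in NDL, 5.11 ± 0.02 in Met1 and 5.56 ± 0.71 in SSM2, with line means under the 25th percentile for 5 of 12 in NDL, 6 in Met1 and 3 in SSM2. Ly6g, the defining surface marker, read 4.13, 4.09 and 4.34 in NDL, against 4.32, 4.35 and 4.42 in Met1 and 5.37, 4.61 and 4.30 in SSM2. The Ly6g mean was under the 25th percentile in every line, so its order between lines is uncertain. Of the 12, Cd177 alone had a mean over 7 in any line, at 11.43 in NDL, against 6.05 in Met1 and 6.10 in SSM2. Without Cd177, a step added after the values were seen, the other 11 averaged 4.87 in NDL, 5.02 in Met1 and 5.51 in SSM2. NDL was then no longer above Met1, but single markers did not share an order. Camp averaged 5.78 in NDL, 5.39 in Met1 and 5.44 in SSM2, while S100a8 averaged 5.68, 6.33 and 6.74. The part of neutrophils in the Lcn2 level was not tested. The 10 macrophage markers averaged 8.85 ± 0.36 in NDL, 10.07 ± 0.13 in Met1 and 9.01 ± 0.73 in SSM2.

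The families of the 8 genes did not follow them as a whole. Of 82 measured relatives (83 listed), 19 passed between NDL and Met1 (19.1% of all genes did), 21 between NDL and SSM2 (16.9%) and 13 between Met1 and SSM2 (11.8%). Their median log2 difference was 0.18 for NDL minus Met1 and 0.17 for NDL minus SSM2. The count between NDL and SSM2 was 37 without NDL replicate 3, and that between Met1 and SSM2 was 8 and 7 without Met1 replicates 1 and 2. The number of all genes called moved as well, to 7018, beside 3364 with all arrays, in the first case, and to 1360 and 1436, beside 2356, in the second. To name relatives on firmer ground, a call is given below as kept where it passed in the same direction with all 9 arrays and with each array left out. Between NDL and Met1, 7 relatives were kept as higher (5.13% of all genes) and 8 as lower (5.28%). Between NDL and SSM2, 8 were kept as higher (5.25%) and 7 as lower (3.19%), and between Met1 and SSM2, 2 as higher (3.65%) and 5 as lower (2.44%).

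Among 19 WAP domain relatives of Wfdc18, Wfdc5 rose in NDL. It read 9.04, 8.49 and 8.86 in NDL, against 5.49, 5.41 and 5.21 in Met1 and 5.34, 5.24 and 5.48 in SSM2, a difference of 3.42 ± 0.16 from Met1 (limma, adjusted p = 1.04e-05) and of 3.44 ± 0.16 from SSM2 (7.7e-06). Relatives of the same fold went the other way. Wfdc2, the human ovarian cancer marker HE4, fell in NDL by 1.86 ± 0.23 against Met1 (limma, adjusted p = 0.00102) and by 2.93 ± 0.23 against SSM2 (0.000123). Slpi, the secretory leukocyte protease inhibitor, fell by 2.32 ± 0.44 and by 2.35 ± 0.44 (0.00776 and 0.00908). Wfdc3 rose against SSM2 by 1.55 ± 0.25 (limma, adjusted p = 0.00414). Whey acidic protein itself, Wap, read 6.94, 6.73 and 5.84 in NDL, against 5.55, 5.62 and 5.65 in Met1 and 5.54, 5.41 and 5.37 in SSM2, and its difference from Met1 of 0.89 ± 0.25 (limma, adjusted p = 0.0383) was lost without NDL replicate 1 (0.126) or 2 (0.119), without Met1 replicate 1 (0.111), 2 (0.103) or 3 (0.0954), and without SSM2 replicate 1 (0.0520) or 2 (0.0587).

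The Clca genes lie side by side on mouse chromosome 3 in the RefSeq order Clca3a1, Clca3a2, Clca3b, Clca4b, Clca4a, Clca1 and Clca2, and split by line. Clca3a1, next to Clca3a2, read 8.57, 7.90 and 9.78 in NDL, against 4.12, 4.83 and 4.35 in Met1 and 4.75, 4.32 and 5.87 in SSM2, higher by 4.32 ± 0.52 than Met1 and by 3.77 ± 0.52 than SSM2 (limma, adjusted p = 0.000876 and 0.00212). As for Clca3a2, NDL replicate 3 and SSM2 replicate 3 were the highest arrays of their lines, and its Met1 mean was under the 25th percentile. Clca2 at the far end rose by 2.66 ± 0.45 and 4.01 ± 0.45 (limma, adjusted p = 0.00423 and 0.000669). Clca1, the goblet cell member, marked SSM2 instead: it read 5.53, 5.77 and 5.13 in NDL and 5.04, 5.25 and 5.34 in Met1, against 12.84, 11.00 and 9.10 in SSM2, a difference of -5.50 ± 0.76 for NDL minus SSM2 (limma, adjusted p = 0.00209). Clca3b, the other neighbour of Clca3a2, read 9.74 in SSM2 replicate 3 and 4.50 to 5.53 in the other 8 arrays.

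Of 14 Ceacam relatives, only Ceacam1, an inhibitory adhesion receptor, was kept in a contrast. It read 9.67, 8.73 and 11.08 in NDL, against 5.40, 5.91 and 4.89 in Met1 and 10.07, 9.53 and 9.11 in SSM2. Ceacam1 was thus higher in NDL than in Met1 by 4.43 ± 0.55 (limma, adjusted p = 0.00103) but differed by 0.26 ± 0.55 from SSM2 (0.761), unlike Ceacam10, whose SSM2 signal was near background. Shared probes among Ceacam genes were not examined.

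Of 8 measured chitinase-like relatives of Chil1, 0 passed between NDL and Met1 by limma (1 at an unadjusted p under 0.05). Between NDL and SSM2, 1 passed, Chid1, at 0.68 ± 0.12 (limma, adjusted p = 0.00623). Chil3 and Chil4, the chitinase-like proteins of activated mouse macrophages, lay between 2.86 and 3.56 in the NDL arrays, between 2.74 and 3.56 in the Met1 arrays and between 2.89 and 4.57 in the SSM2 arrays, all under the 25th percentile.

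Among 17 lipocalin relatives of Apod and Lcn2, the kept calls were Ptgds, Lcn6, Orm2 and Rbp4. Ptgds, a prostaglandin D synthase, rose in NDL by 0.69 ± 0.11 against Met1 and by 0.74 ± 0.11 against SSM2 (limma, adjusted p = 0.00342 and 0.00313). Orm2, an acute phase glycoprotein, was lower in NDL than in Met1 by a difference of -1.68 ± 0.14 (limma, adjusted p = 0.000129) with an NDL mean of 4.35, under the 25th percentile. Rbp4, the retinol carrier, averaged 5.07 ± 0.22 in NDL, against 9.40 ± 2.00 in SSM2 (SD, n = 3; limma, adjusted p = 0.00866). Lcn6 rose by 0.56 ± 0.11 against an SSM2 mean of 4.32 that is also under the 25th percentile (limma, adjusted p = 0.0123).

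Among 9 tandem C2 relatives of Tc2n, Sytl3, a Rab27 effector of vesicle release, rose in NDL by 2.40 ± 0.11 against Met1 and by 2.43 ± 0.11 against SSM2 (limma, adjusted p = 1.2e-05 and 9.47e-06). Its arrays read 7.30, 7.11 and 7.43 in NDL, 4.95, 4.76 and 4.93 in Met1 and 4.91, 4.76 and 4.87 in SSM2. Both other lines averaged just under the 25th percentile, so its size is uncertain too. Sytl4 fell against Met1 by 0.87 ± 0.16 (limma, adjusted p = 0.00739), and Sytl5 fell against SSM2 by 1.68 ± 0.29 (0.00624) to an NDL mean under the 25th percentile.

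Of 9 discoidin relatives of Mfge8, 4 were kept as lower and 1 as higher in NDL against Met1, and 2 as lower against SSM2. Edil3, which like Mfge8 binds phosphatidylserine and integrins, read 5.73, 4.78 and 5.74 in NDL, against 7.60, 7.87 and 7.99 in Met1 and 7.11, 7.04 and 7.11 in SSM2, differences of -2.41 ± 0.25 and -1.67 ± 0.25 (limma, adjusted p = 0.000397 and 0.00294). Nrp1, a semaphorin and VEGF co-receptor, fell by 1.69 ± 0.28 against Met1 and by 1.44 ± 0.28 against SSM2 (limma, adjusted p = 0.00397 and 0.0102). Nrp2 and the collagen receptor Ddr2 fell against Met1 by 2.32 ± 0.21 and 1.87 ± 0.26 (limma, adjusted p = 0.000201 and 0.00163). The epithelial collagen receptor Ddr1 rose against Met1 by 1.46 ± 0.16 (limma, adjusted p = 0.000548).

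**Figure D4:**
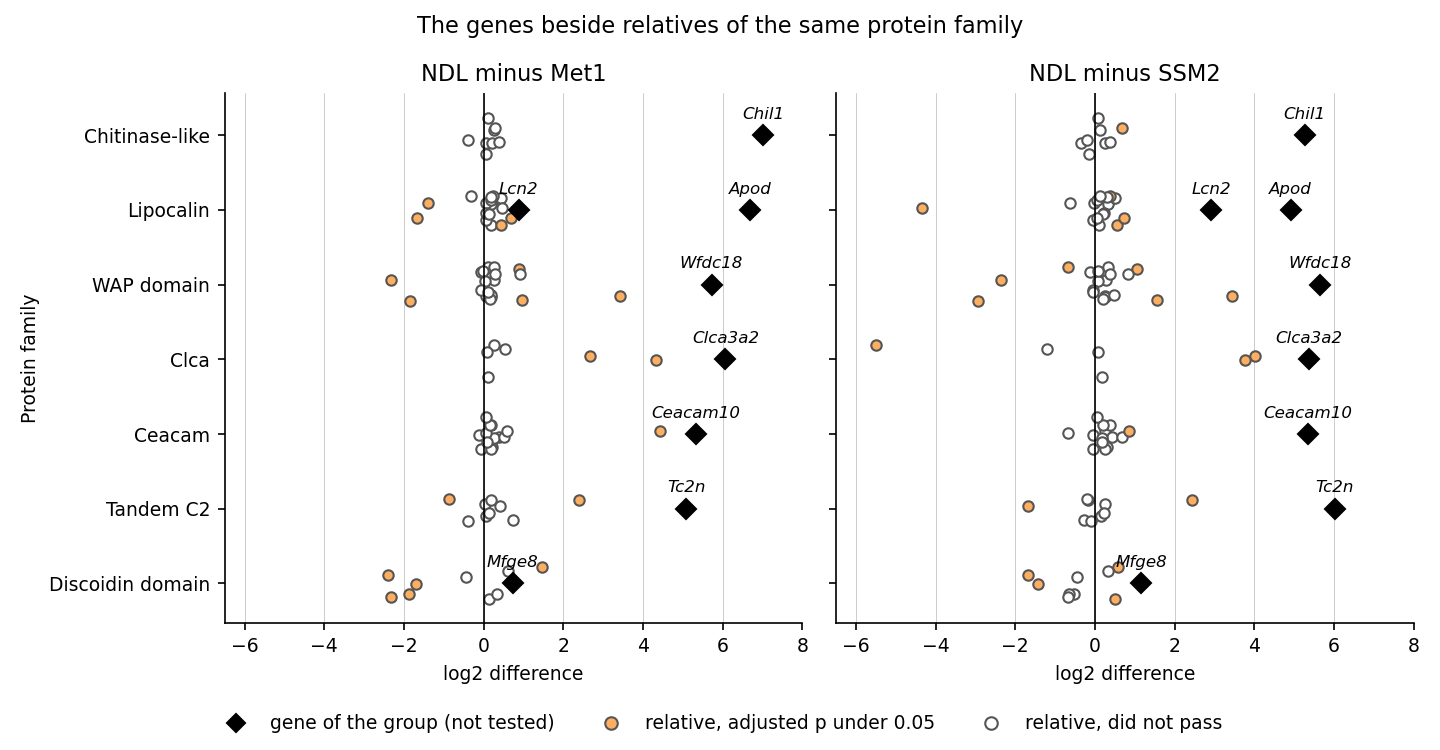
Log2 differences (horizontal axes) of NDL minus Met1 (left) and NDL minus SSM2 (right) for the 8 genes (diamonds) and their measured relatives (circles, filled where the adjusted p from limma is under 0.05), 1 row per protein family with vertical scatter for legibility only. Most relatives lie near 0, with Ceacam1 at 4.43 on the left and Clca1 at -5.50 on the right among those far from it.

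Receptors, inducers and co-secreted products of the 8 genes made a second list of 69 measured genes (72 listed). Of these 17 passed between NDL and Met1, 22 between NDL and SSM2 and 8 between Met1 and SSM2, beside 19.1%, 16.9% and 11.8% of all genes. The counts fell to 11 without NDL replicate 1 or Met1 replicate 1 in the first contrast, to 13 without NDL replicate 1 and 12 without SSM2 replicate 2 in the second. In the third contrast the count was 5 without Met1 replicate 1, 2 or 3 or SSM2 replicate 2, and 14 without SSM2 replicate 1. Kept calls numbered 7 higher and 3 lower between NDL and Met1, 9 and 2 between NDL and SSM2, and 2 and 3 between Met1 and SSM2. The shares of all genes kept were 5.13% and 5.28%, 5.25% and 3.19%, and 3.65% and 2.44% in the same order.

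Of 11 receptors and binding partners, Slc22a17, a proposed receptor for lipocalin 2, read 7.18, 7.59 and 7.63 in NDL, against 6.48, 6.51 and 6.49 in Met1 and 6.29, 6.11 and 6.39 in SSM2. It rose by 0.97 ± 0.14 against Met1 and by 1.20 ± 0.14 against SSM2 (limma, adjusted p = 0.0019 and 0.000835). Mmp9, the protease that lipocalin 2 stabilises, read 7.13, 6.74 and 6.37 in NDL, against 6.63, 6.91 and 5.87 in Met1 and 8.72, 7.06 and 6.90 in SSM2, and did not pass in any contrast (adjusted p of 0.221 to 0.727). Itgav, the alpha chain of the integrins that bind Mfge8, fell by 1.17 ± 0.15 against Met1 and by 0.88 ± 0.15 against SSM2 (limma, adjusted p = 0.00131 and 0.00651). For Chil1, the receptor subunit Il13ra2 stayed between 3.02 and 3.24 in all 9 arrays, near background. Its partner Tmem219 read 7.49, 7.50 and 7.10 in NDL, against 6.75, 6.68 and 7.10 in Met1 and 7.34, 7.10 and 7.04 in SSM2.

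Of 13 secreted defence products, 3 were kept as higher in NDL against Met1 (Ltf, Pigr and Lrg1), 2 of them also against SSM2, and Slpi was kept as lower against both lines. Ltf, lactoferrin, the iron-binding milk protein, read 8.75, 7.76 and 7.87 in NDL, against 4.92, 4.95 and 5.31 in Met1 and 5.87, 5.98 and 4.87 in SSM2. It rose by 3.07 ± 0.34 against Met1 and by 2.55 ± 0.34 against SSM2 (limma, adjusted p = 0.000616 and 0.00184). Pigr, which carries antibodies across epithelia into milk, rose by 2.70 ± 0.26 and 3.18 ± 0.26 (limma, adjusted p = 0.000303 and 0.000143). Lrg1 rose against Met1 by 1.90 ± 0.36 (limma, adjusted p = 0.00783) and differed from SSM2 by -0.33 ± 0.36 (0.539).

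Of 10 milk fat globule proteins, the companions of Mfge8, those kept as higher in NDL were Folr1, Muc15 and Btn1a1 against both lines and Xdh against SSM2. Folr1, the folate receptor, read 8.71, 9.02 and 8.22 in NDL, 6.00, 6.14 and 5.78 in Met1 and 6.14, 6.03 and 5.68 in SSM2, a rise of 2.67 ± 0.22 and 2.70 ± 0.22 (limma, adjusted p = 0.000128 and 0.000126). Muc15, a membrane mucin, rose by 3.15 ± 0.50 and 3.11 ± 0.50 (limma, adjusted p = 0.00338 and 0.00452), against means of 4.26 and 4.29 near background. Btn1a1, butyrophilin, rose by 0.66 ± 0.13 and 0.80 ± 0.13 (limma, adjusted p = 0.00872 and 0.00451), again from means under the 25th percentile. Xdh, xanthine oxidoreductase, rose against SSM2 by 2.80 ± 0.44 (limma, adjusted p = 0.00379).

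Of 20 measured cytokine, NF-kB and related inducers, which act on Lcn2 and Chil1 in many epithelia, Cebpb alone was kept in any contrast, rising by 1.05 ± 0.21 against SSM2 (limma, adjusted p = 0.0118). Nfkbiz, the co-activator of Lcn2, differed by -0.41 ± 0.25 from Met1 and by -0.19 ± 0.25 from SSM2 (limma, adjusted p = 0.288 and 0.599). Stat3 differed by 0.22 ± 0.11 and 0.20 ± 0.11 (limma, adjusted p = 0.206 and 0.222).

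Further relatives and partners passed with all 9 arrays but not with each array left out. Between NDL and Met1 these were, besides Wap, 3 higher genes (Wfdc3, Lcn6 and the integrin chain Itgb3) and 4 lower genes (the acute phase protein Orm1, the proteoglycan Sdc1, the IL-17 receptor Il17ra and the NF-kB subunit Rel), with limma adjusted p of 0.0121 (Il17ra) to 0.0341 (Rel). Including Wap, the 8 calls were lost in 2 to 7 of 9 such fits, and their highest adjusted p lay between 0.0515 and 0.126. The defence products Lbp (higher, limma, adjusted p = 0.0444) and Lyz2 (lower, 0.0287) also passed against Met1 without being kept, but fell outside that rule. Between NDL and SSM2 they were Bsg, Ceacam20, Dcbld1, Ddr1, Gas6, Itgb3 and Lcn5, which were higher, and Hp, Megf10, Muc1, Sdc1 and Tgm2, which were lower (limma, adjusted p of 0.0144 for Ceacam20 to 0.0488 for Megf10). These 12 calls were lost in 1 to 8 of the 9 fits, with a highest adjusted p between 0.0504 and 0.155. Apart from Btn1a1, calls against SSM2 outside that rule were also not kept. Among them was Wap, higher in NDL by 1.06 ± 0.25 (limma, adjusted p = 0.0227). Between Met1 and SSM2 they were Cd44, Ddr2, Elmo1, Plin2 and Sytl4, which were higher, and F5, Sytl1, Wfdc2 and Wfdc12, which were lower (limma, adjusted p of 0.0121 for Ddr2 to 0.0448 for F5), lost in 2 to 8 of the 9 fits with a highest adjusted p between 0.0545 and 0.142.

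The 6 genes whose pattern over the 9 arrays was most like the mean standardised profile of the 8 genes were Cyp2d22, Aqp5, Rnf144a, Slc2a9, Plekhb1 and Scml4, with Pearson correlations of 0.998, 0.994, 0.994, 0.993, 0.992 and 0.992. The 9 arrays share 3 lines, and the step at NDL sets most of this likeness. The 8 genes themselves correlated with their mean profile at 0.777 (Lcn2) and 0.838 (Mfge8) up to 0.987 (Wfdc18). Aqp5, a water channel of secretory glands, read 11.99, 12.26 and 12.19 in NDL, against 7.82, 7.80 and 7.19 in Met1 and 7.60, 7.64 and 6.26 in SSM2.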

How the data were processed

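Total RNA (100 ng, miRNeasy FFPE kit) of 9 snap-frozen tumour samples was hybridised to Mouse Gene 1.0 ST arrays, per the labels' protocols. The deposited table holds log2 values, produced by the authors through RMA in oligo 1.40.2, per the submitters' processing notes. For array dates and genome build, nothing is given in the sources used here. Of 35556 features, 21789 had 1 gene symbol, 1621 several and 12146 none; of the 21789, 21698 matched RefSeq genes and 91 kept their symbol. The brightest feature stood for each of 999 genes with several, leaving 19938 genes with no signal filter and no further scaling. Array values have no read depth, and 3 arrays per line limit the precision.

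All 9 arrays were fitted in limma 3.58.1 (R 4.3.3) with lmFit and eBayes, two-sided, with 6 residual and 2.42 prior degrees of freedom. P-values were adjusted by Benjamini-Hochberg over 19938 genes, and calls made at an adjusted p under 0.05. Errors of differences are model standard errors, and those of means are SDs. The members and gene lists were chosen with earlier results of these data known. Named are all 8 genes, in each list and contrast every called gene up to 5 or else the 4 with the largest differences, the 6 genes nearest in pattern, and Erbb2 and Elf5. Btn1a1 and Wap against SSM2, and Lbp and Lyz2 against Met1, were named after their values were seen. So were Cd177, Ly6g, Camp, S100a8, Clca3b, Chil3, Chil4, Mmp9, Il13ra2, Tmem219, Nfkbiz and Stat3. The rule of calls kept with each array left out was also set then. Listed genes not measured (C3, Ddx3y, Il1r1, Lalba, Nfkb1, Ovgp1) and protein sequences were not analysed here. Promoters came from RefSeq (GRCm38.p6), of which 1 sequence is not reported here, nor is 1 of the motifs searched, which had a match in 1 of the 10 windows. Alternatives were signal filters, an intensity trend, other scalings, feature rules, the replicate number as a block, fits of 2 lines and each array left out. The fit was tested on simulated data. Figures used matplotlib 3.10.9, pandas 2.3.3 and numpy 2.4.6.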

Additional observations from a re-analysis of the deposited data

How the results depend on the processing

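Under the alternatives run no named difference past the threshold, and no NDL difference of the 8 genes, changed sign. The Met1 minus SSM2 differences of Wfdc18 and Ceacam10, near 0, ran between -0.72 and 0.37 and between -0.13 and 0.18 with each array left out, and that of Ceacam10 was -0.03 after cyclic loess. Of all genes called between NDL and Met1, 46.4% were higher, but 51.5% and 50.8% without NDL replicates 1 and 3. With each array left out, the median difference of the 8 genes ran between 5.34 and 5.69 (NDL minus Met1) and between 4.85 and 5.44 (NDL minus SSM2). Over the same fits, genes called numbered 2371 to 6631, 1873 to 7018 and 1360 to 2754 in the contrasts NDL versus Met1, NDL versus SSM2 and Met1 versus SSM2. Relatives called numbered 15 to 28, 15 to 37 and 7 to 14, and partners 11 to 25, 12 to 25 and 5 to 14. Between Met1 and SSM2, 1 to 1 of the 8 genes was called higher and 0 to 2 lower. With genes above the median signal only, 10, 11 and 7 of the 17 relatives tested were called, beside 19, 21 and 13 of 82 with all genes. The share of all genes called in that fit is not given here. Of the 8 genes, 6 were tested in it, and 2 were called lower in Met1 than in SSM2. With equal medians that number was also 2. In fits of the 2 lines compared alone it was 0, with 12 partners and 1755 genes called between NDL and SSM2. NDL replicates 1 and 2 had the lowest upper quartiles, and leaving both out was added after the data were seen. The single NDL array left is then assumed to vary like the other lines. That gave 9 partners and 1702 genes called between NDL and Met1, 9 relatives, 8 partners and 1190 genes between NDL and SSM2, and 0 of the 8 genes lower in Met1. The NDL differences of Tc2n were then 6.18 from Met1 and 7.12 from SSM2. Calls kept with each array left out that no longer passed there were Lrg1, Slpi, Btn1a1, Ddr2, Nrp1 and Sytl4 against Met1 (adjusted p of 0.0567 to 0.157), and Slpi, Cebpb, Xdh, Itgav, Clca1, Wfdc3, Chid1, Nrp1, Lcn6, Rbp4 and Sytl5 against SSM2 (0.0572 to 0.186), with fewer samples. Lcn6 against SSM2 was also lost in the fit of 2 lines (0.0506). The replicate numbers gave no sign of pairing the samples. Deviations of same-numbered arrays correlated at -0.347 to 0.288, and those of differently numbered arrays at -0.329 to 0.34. That check cannot show that the samples were unpaired, since deviations from a mean of 3 arrays depend on each other. With the replicate number as a block, 13 of 13 main results held. These were counts, which stayed within 1.5 times, and median NDL differences of the 8 genes, which stayed within their typical SD between arrays. In that fit the limma adjusted p of Chil1 between Met1 and SSM2 was 0.0339 and that of Lcn2 was 0.0126. Other causes of these shifts were not tested. Near background, as for Ceacam10 and Tc2n in Met1 and SSM2, the array limits what a fold can show.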

Other observations

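Genes of apoptotic cell clearance, the process in which Mfge8 takes part, included 1 kept as lower in NDL against Met1 and 1 kept as higher against SSM2, of 16 measured. Axl, a receptor tyrosine kinase for Gas6, read 7.89, 8.23 and 7.75 in NDL, against 10.56, 10.43 and 10.38 in Met1 and 9.06, 8.36 and 8.18 in SSM2, and fell in NDL by 2.50 ± 0.23 against Met1 (limma, adjusted p = 0.000222). Elmo1, an engulfment adaptor, rose in NDL by 2.16 ± 0.27 against SSM2 (limma, adjusted p = 0.00124). The macrophage marker mean was 8.85 in NDL and 10.07 in Met1, and its part in the Axl difference was not tested. Tgm2, a transglutaminase, averaged 9.97 in Met1, against 11.72 in SSM2 (limma, adjusted p = 0.00662).

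Among kept calls between Met1 and SSM2, Clca1 averaged 5.21 in Met1, against 10.98 in SSM2 (limma, adjusted p = 0.00202), and Rbp4 4.61 in Met1, under the 25th percentile, against 9.40 in SSM2 (0.00629). Muc1, a shed epithelial mucin, averaged 5.61 in Met1, against 8.62 in SSM2 (limma, adjusted p = 0.00506), where the epithelial marker means were 7.14 and 10.52. Higher in Met1 were Xdh, by 2.37 ± 0.44 (limma, adjusted p = 0.00953), Orm2, by 1.74 ± 0.14 (0.000191), and Nrp2, by 1.65 ± 0.21 (0.00157). Lrg1, Ddr1 and Sytl5 were lower in Met1, with differences of -2.23 ± 0.36, -0.89 ± 0.16 and -2.09 ± 0.29 (limma, adjusted p = 0.00543, 0.00846 and 0.00271).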
